A study of Homo sapiens with 16 samples.

Results

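The cells described here are the 254 cells that the deposited annotation names my_CAF, for myofibroblastic cancer-associated fibroblasts, in mouse mammary tumors. They were chosen by that cluster name alone, and are 254 of 48824 cells when each cell barcode is counted once. The tumors were mouse-derived syngeneic transplants grown in the mammary fat pad of female FVB mice bought at 6 weeks of age, and were named LPA1-T22 (T22) and LPA1-T127 (T127). Mice received the PARP inhibitor olaparib at 50 mg/kg daily or vehicle. In the short-term experiments T22 or T127 tumors were treated for 4 or 8 days and captured in 4 pools per model. In the long-term experiment T22 and T127, each as a single strain or with both on opposite sides of one mouse, were treated for 20 days and captured in 8 pools. Each pool is labelled as tumors treated with or without olaparib, which does not say whether any single pool held both. The tag of each cell's tumor was not used here. Vehicle and olaparib, days 4 and 8, and single and co-transplanted tumors therefore could not be told apart. The labels do not say which tumors each pool held, so the pools are not known to be separate tumors.

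The my_CAF cells were rare. They were 129 of 15094 cells in the T22 pools, or 0.855% (95% Clopper-Pearson interval 0.714 to 1.01, with 29, 38, 34 and 28 cells in pools 1 to 4). In the T127 pools they were 8 of 8007 cells, or 0.0999% (95% interval 0.0431 to 0.197, with 2, 1, 1 and 4 cells per pool). In the long-term pools they were 117 of 25723 cells, or 0.455% (95% interval 0.376 to 0.545), with 8 to 21 cells per pool. Of the non-malignant cells alone they were 0.982% in T22, 0.256% in T127 and 0.620% in the long-term pools. Intervals here and below cover counting error only. As deposited, the long-term pools held 159 my_CAF cells with 118 distinct barcodes, of which 29 were my_CAF in 2 pools and 6 in 3 pools, all among pools 1 to 3. Of these cells the 42 shallower copies, with a median of 1500 UMIs (unique molecular identifiers, each 1 captured mRNA), were left out. In the short-term pools a pair of pools had 0 to 8 barcodes in common. The median depth of a my_CAF cell was 12037 UMIs in T22, 12633.5 in T127 and 5926 in the long-term pools. All cells of a pool held 40270841 to 42436039 UMIs in T22, 49690430 to 55600377 in T127 and 32298013 to 43985662 in the long-term pools. The T127 values rest on 8 cells. Where values by T127 pool are given, each describes 1 to 4 cells and is not a reliable measurement of its own.

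Mural cells lie on the outside of small blood vessels. Pericytes share a basement membrane with the endothelium of capillaries, are held there by PDGF-B from endothelial cells acting on their receptor PDGFR-beta, and carry Notch3, whereas vascular smooth muscle cells around arterioles carry more of the contractile machinery. Myofibroblasts are fibroblasts that gain alpha smooth muscle actin and lay down collagen I. Because mural cells, myofibroblasts and the myoepithelial cells of the mammary gland all make alpha smooth muscle actin (Acta2), the gene alone does not tell them apart. The my_CAF cells were therefore set beside 3 deposited clusters of the same pools, which are inflammatory fibroblasts (i_CAF), endothelial cells (Endo.cells) and the malignant cluster Malign_2, which carries basal keratins and has Acta2 of its own. Malign_2 had fewer than 50 cells in the T127 pools and was not compared there.

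Levels are the UMIs of a gene summed over the cells of a cluster, per 1000000 UMIs of those cells (CPM). A ratio was taken for every gene with at least 50 UMIs in both clusters together, on the log2 scale after adding 5 CPM to both levels, and a gene was called higher or lower when it differed by 2-fold or more. Because the pools are not known to be separate tumors, no p-value was computed. The clusters were drawn by the authors from these same counts, so that a difference between my_CAF and another cluster describes the cluster and is no test of it.

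All 4 genes given as markers of the cluster were present, but the gene that set it furthest apart was Rgs5, a regulator of G protein signalling used as a pericyte marker. In pools 1 to 4 of T22 Rgs5 was at 8801, 10837, 8082 and 11036 CPM. In the 4 pools of T127 it was at 15389, 11921, 14229.6 and 5456 CPM, and over the 8 long-term pools at 2926 at the lowest, 4083 at the median and 5184 at the highest. Its level in i_CAF was 3.38 CPM in T22 and 0.566 CPM in the long-term pools, and in Malign_2 0.734 and 1.28 CPM. Endo.cells held 239.9 CPM in T22, 6.14 CPM in the long-term pools. Most of the T22 value came from pool 2 of Endo.cells, at 1061 CPM, where Higd1b was also present at 32.8 CPM, and the other T22 pools of Endo.cells were at 0 to 7.32 CPM. For Rgs5 the my_CAF pools did not overlap those of the 3 clusters. Acta2 was at 2725, 2056, 3159 and 4335 CPM in the T22 pools and at 3059 at the lowest, 6364 at the median and 10499.7 at the highest over the long-term pools. Malign_2 was above my_CAF for Acta2 in T22 (4685 against 3003 CPM, ratio 0.641, 95% interval 0.624 to 0.659). It was close to my_CAF in the sum over the long-term pools (7275 against 7437 CPM, ratio 1.02, 95% interval 0.995 to 1.05). That sum joins unlike pools. In pools 5 to 8 Acta2 of my_CAF, at 3059 to 4560 CPM, lay wholly below Malign_2, at 5270 to 6647 CPM. In pools 1 to 4 the 2 clusters overlapped, at 8169 to 10499.7 CPM in my_CAF and 7045 to 9661 CPM in Malign_2. Tagln, an actin-binding protein of smooth muscle, was at 1502, 568, 1376 and 2513 CPM in the T22 pools and at 1381 at the lowest, 2437 at the median and 4041 at the highest over the long-term pools. Malign_2 had 619.8 and 827 CPM of it, and i_CAF 679 and 315. Myh11, the myosin heavy chain of smooth muscle, was at 213, 286, 171 and 496 CPM in the T22 pools and at 128 at the lowest, 173 at the median and 578 at the highest over the long-term pools, against 1.69 and 0.850 CPM in i_CAF. For Myh11, the T22 pool 3 of my_CAF, at 171 CPM, lay below the summed Malign_2 level of 197 CPM.

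**Figure D1:**
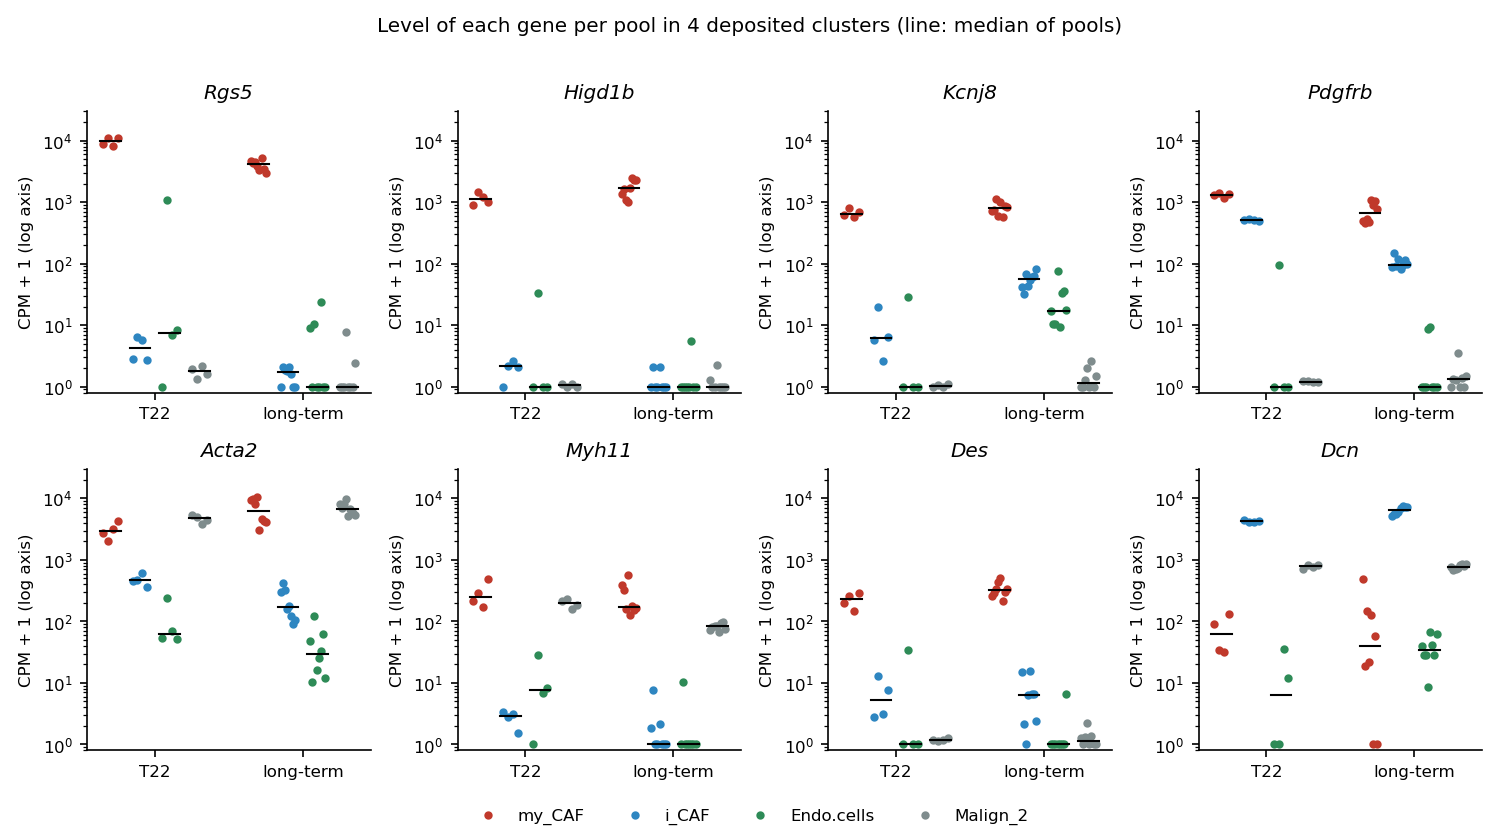
CPM plus 1 on a log axis of 8 genes in each of the 4 T22 pools and 8 long-term pools (points) and the median of the pools (line) for the deposited clusters my_CAF, i_CAF, Endo.cells and Malign_2. Rgs5, Higd1b, Kcnj8 and Des of my_CAF lie above all pools of the other clusters, Acta2 of my_CAF overlaps Malign_2 in both experiments, and Dcn of my_CAF lies below every i_CAF pool.

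Pericyte genes were higher in my_CAF than in all 3 clusters. All 17 had enough UMIs against i_CAF in T22, and 16 of them were called higher and 1 lower, with a median log2 ratio of 3.52. Of the 9698 genes tested in that comparison 7.29% were called higher and 9.65% lower, and the median over all of them was 0.09. Against i_CAF of the long-term pools 16 of 17 were called higher (7.52% of all genes tested were called higher, and 12.5% lower, median 0.06), and in T127 11 of 14 with 2 lower (7.7% higher and 19.6% lower over all genes, median -0.05). Against Endo.cells 16 of 17 were called higher in T22 (11.9% higher and 11.3% lower over all genes), 9 of 10 in T127 (6.05% and 25.6%) and 15 of 16 in the long-term pools (9.02% and 15.2%). Against Malign_2 16 of 17 were called higher in T22 (12.5% higher and 12.5% lower over all genes) and 16 of 17 in the long-term pools (12.8% and 13.8%). The member below i_CAF in T22 and the long-term pools was Anpep, the aminopeptidase CD13, at 28.2 against 68.9 CPM in T22 and 25.6 against 63.8 CPM in the long-term pools.

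Named by function, the receptors of this list included Pdgfrb, which was at 1297, 1415, 1167 and 1353 CPM in the T22 pools and at 457 at the lowest, 652 at the median and 1081 at the highest over the long-term pools. It was also made by i_CAF (509 and 101 CPM), so that the my_CAF cells were 2.58-fold higher in T22 and 6.52-fold higher in the long-term pools. Notch3 was at 733, 712, 596 and 700.0 CPM in the T22 pools and at 298 at the lowest, 389 at the median and 596 at the highest over the long-term pools, and i_CAF had 66.4 and 6.61 CPM. The proteoglycan NG2, encoded by Cspg4, was at 369 CPM in T22 (pools 300.2 to 438) and 109 CPM in the long-term pools (pools 55.0 to 193). Kcnj8 and Abcc9 encode the pore and the regulatory subunit of the ATP-sensitive potassium channel of pericytes. Kcnj8 was at 617, 802, 571 and 680.4 CPM in the T22 pools and at 568 at the lowest, 785 at the median and 1119 at the highest over the long-term pools. Abcc9 was at 1048, 1312, 912 and 1088 CPM in the T22 pools and at 434 at the lowest, 636 at the median and 1062 at the highest over the long-term pools. Both subunits were thus present in every pool, and in i_CAF they reached 7.47 and 15.8 CPM in T22 and 55.2 and 35.5 CPM in the long-term pools.

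Higd1b, a mitochondrial protein gene restricted to pericytes in several organs, was at 903, 1480.4, 1227 and 1019 CPM in the T22 pools and at 1001 at the lowest, 1687 at the median and 2422 at the highest over the long-term pools. In i_CAF it reached 0.987 and 0.283 CPM, on the counts of 7 and 3 UMIs. Ndufa4l2 and Cox4i2, which encode hypoxia-linked proteins of the respiratory chain, were at 1291 and 794 CPM in T22 and 1872 and 1149 CPM in the long-term pools. These were 15.3-fold higher and 26.1-fold higher than in i_CAF of T22. The pair Gucy1a1 and Gucy1b1, the subunits of the nitric oxide receptor guanylate cyclase, were at 824 and 390.4 CPM in T22 and at 457 and 323 CPM in the long-term pools. Mcam, a melanoma cell adhesion molecule found on mural and endothelial cells, was at 529 CPM in T22 and 300.4 in the long-term pools, and Endo.cells had 439.5 and 409.

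Most contractile genes were higher than in i_CAF and Endo.cells, and they were divided against Malign_2. Against i_CAF 12 of the 13 members with enough UMIs, of 18 on the list, were called higher in T22 and 13 of 14 in the long-term pools, none lower in either. Medians were 2.20 and 3.51. These counts stand beside 7.29% of all genes tested called higher in T22 and 7.52% in the long-term pools. Without the long-term pools 1 to 3, which had barcodes in common, 9 of 10 members were called higher. Against Endo.cells 11 of 13 were called higher in T22 and 11 of 13 in the long-term pools, beside 11.9% and 9.02% of all genes tested. The 1 member called lower in each was Smtn (smoothelin), at 37.8 and 28.3 CPM against 88.9 and 81.5 CPM, beside 11.3% and 15.2% of all genes. Against Malign_2 8 of 16 were called higher and 3 lower in T22, and 10 and 2 of 15 in the long-term pools. All genes tested gave 12.5% higher and 12.5% lower in T22, and 12.8% and 13.8% in the long-term pools. The medians of 0.87 and 1.70 stood beside -0.05 and -0.04 for all genes. Des, the intermediate filament desmin of muscle, separated my_CAF from Malign_2 where Acta2 did not. It was at 199.5, 259.8, 145 and 285 CPM in the T22 pools and at 218 at the lowest, 318 at the median and 513 at the highest over the long-term pools, against 0.189 and 0.340 CPM in Malign_2 and 5.50 and 6.42 CPM in i_CAF. Cnn1, the actin-binding calponin of differentiated smooth muscle, went the other way. It was at 10.5, 1.87, 0 and 27.0 CPM in the T22 pools and at 0 at the lowest, 9.42 at the median and 158 at the highest over the long-term pools, against 309 and 328 CPM in Malign_2. Mylk, the kinase that phosphorylates the myosin light chain, was at 789 and 571 CPM in my_CAF and at 339.6 and 169.5 CPM in Malign_2. Lmod1, a leiomodin of smooth muscle, was at 24.3 CPM in T22 and 75.4 CPM in the long-term pools (20.4 and 18.4 in Malign_2). Myocd, the coactivator that drives the contractile programme, had 2 and 7 UMIs in the T22 and long-term my_CAF cells, too few for a ratio.

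**Figure D2:**
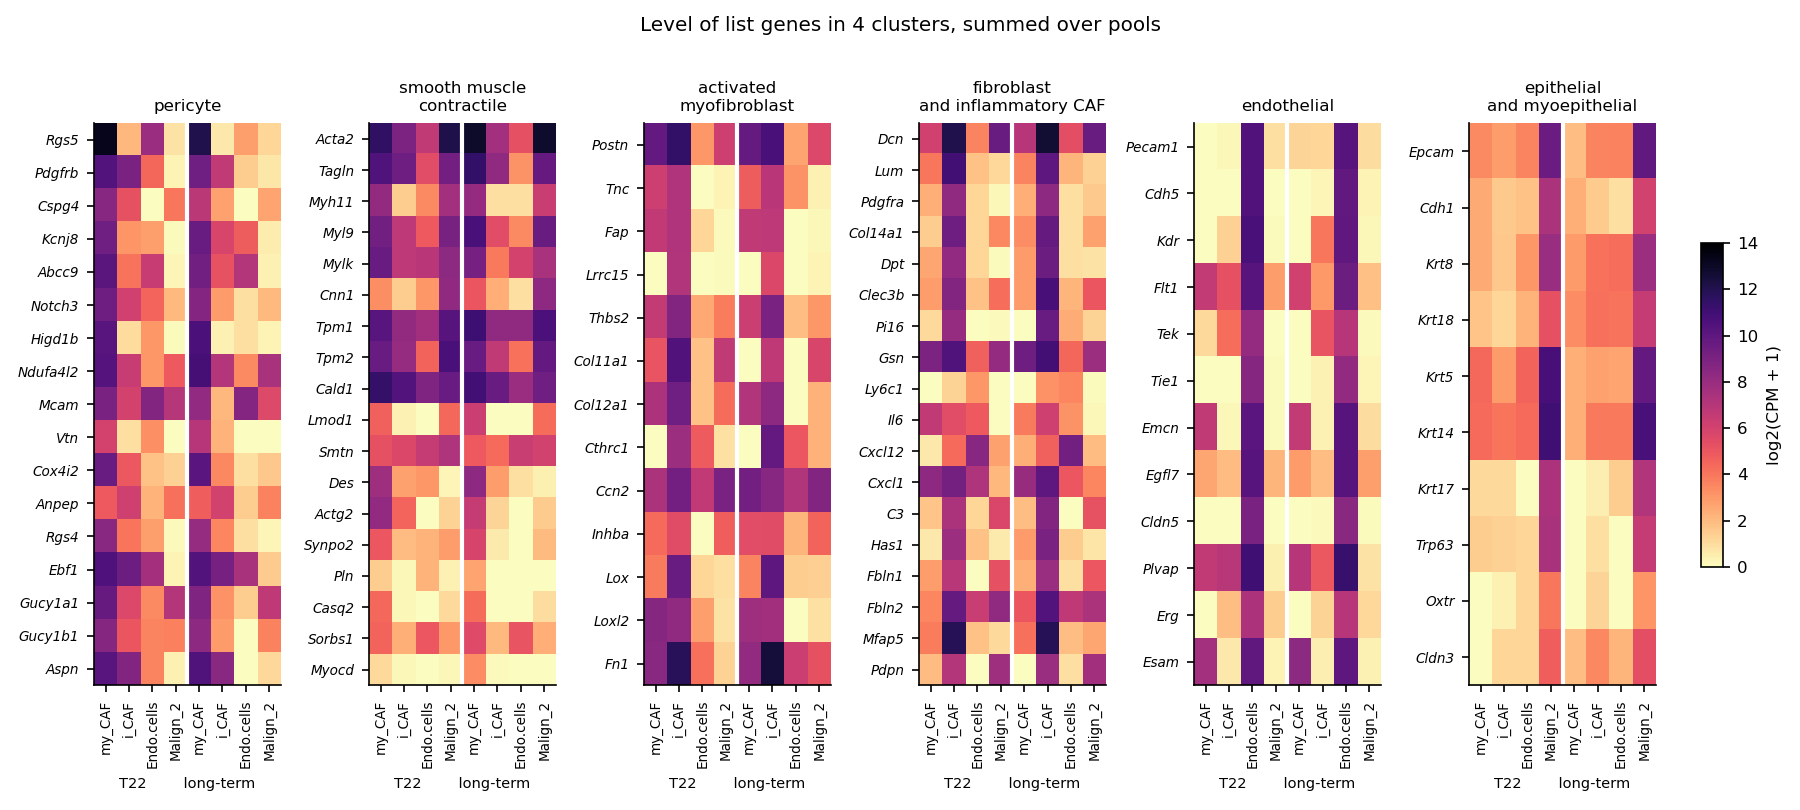
log2(CPM + 1), by colour, of genes of 6 lists (rows) in my_CAF, i_CAF, Endo.cells and Malign_2 (columns), with the T22 pools left and the long-term pools right of the white line in each panel. The my_CAF columns are dark for Rgs5, Higd1b, Cox4i2, Acta2 and Tagln, and pale for Lrrc15, Cthrc1, Pi16, Pecam1, Cdh5, Krt17 and Trp63.

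Genes of fibroblasts were low in the my_CAF cells. Against i_CAF 15 of the 17 tested members of the fibroblast and inflammatory CAF list were called lower and 1 higher in T22, 15 of 17 lower in T127 and 18 of 18 lower in the long-term pools. The medians were -5.13, -5.53 and -5.59. By comparison 9.65% of all genes tested were called lower in T22 (7.29% higher), 19.6% in T127 and 12.5% in the long-term pools. Dcn, the proteoglycan decorin of fibroblasts, was at 89.3, 33.6, 31.1 and 133 CPM in the T22 pools of my_CAF and at 0 at the lowest, 38.8 at the median and 486 at the highest over the long-term pools. In i_CAF it was at 4274 and 6544 CPM, and in Malign_2 at 787 and 772 CPM. The list as a whole was divided against Malign_2, with 4 called higher and 7 lower of 13 in T22 and 3 and 6 of 11 in the long-term pools, beside 12.5% and 12.5% of all genes tested in T22 and 12.8% and 13.8% in the long-term pools. Pdgfra, the PDGF receptor of fibroblasts, was at 0, 1.87, 0 and 14.7 CPM in the T22 pools. It was seen in 3 of the 8 long-term pools, at up to 9.46 CPM, against 309 and 323 CPM in i_CAF. Lum (lumican) was at 14.7 CPM in T22 and 10.8 CPM in the long-term pools, Dpt (dermatopontin) at 5.08 and 6.74, and Mfap5, of elastic microfibrils, at 13.0 and 17.5. In i_CAF these genes were at 1966, 299.8 and 3682 CPM in T22. The member called higher in T22 was Il6, at 65.6, 87.9, 225 and 9.83 CPM in the pools, against 42.8 CPM in i_CAF. Pool 4 thus lay below i_CAF, and pool 3 stood well above the other pools, so that the call leans on it. Over the long-term pools Il6 was at 0 at the lowest, 7.93 at the median and 66.5 at the highest, against 70.9 CPM in i_CAF, and was called lower.

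The activated myofibroblast genes were mostly at or below their level in i_CAF. In T22 0 of 14 members were called higher and 9 lower (median -1.97), in the long-term pools 0 and 8 of 14 (median -1.55), and in T127 1 and 10 of 14 (median -1.82). Beside these, 7.29% of all genes tested were higher and 9.65% lower in T22. The shares were 7.52% and 12.5% in the long-term pools and 7.7% and 19.6% in T127. Cthrc1 and Lrrc15, markers of collagen-rich myofibroblasts in tumors and fibrosis, had 0 UMIs in the my_CAF cells of all 3 experiments. Cthrc1 was at 230.2 CPM in i_CAF of T22 and 897 CPM in the long-term pools, which made my_CAF at least 136-fold lower and at least 222-fold lower. For Lrrc15 it was at least 82.4-fold lower and at least 12.8-fold lower, with 3 UMIs over the group taken as the level that a count of 0 allows. Postn, the matrix protein periostin, was present at 1032, 829.9, 827 and 894 CPM in the T22 pools and at 547 at the lowest, 917 at the median and 1442 at the highest over the long-term pools, below the 2840.4 and 1680.3 CPM of i_CAF. Fn1 (fibronectin) was at 367 and 292 CPM against 3596 and 5678, and the collagen crosslinker Lox at 13.5 and 10.8 against 804 and 1041. Its relative Loxl2 was at 391 and 219.6 CPM, against 314 and 207 in i_CAF, a difference below 2-fold. The same list was mostly above endothelial cells, with 9 of 10 members called higher in T22 and 8 of 8 in the long-term pools. Of all genes tested there 11.9% and 9.02% were called higher.

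Because the name my_CAF stands for a fibroblast, these values go against it in part. Of the 5 fibroblast markers Dcn, Lum, Pdgfra, Col14a1 and Dpt, none passed 124 CPM in the summed my_CAF cells of the long-term pools or 67.7 CPM in T22, and Lum, Pdgfra and Dpt had 0 UMIs in the 8 cells of T127. The cluster name is kept below as a label of the deposited annotation, and its leading genes over the next cluster were Rgs5, Higd1b, Des, Ppp1r14a and Ndufa4l2.

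Fibrillar collagen was made, at lower levels than in i_CAF. Col1a1 was at 2179, 966, 1554 and 2012 CPM in the T22 pools and at 444 at the lowest, 1209 at the median and 2308 at the highest over the long-term pools, against 13273 and 5517 CPM in i_CAF. Col3a1 was at 4051, 3583, 3431 and 3699 CPM in the T22 pools and at 1858 at the lowest, 2710.2 at the median and 3491 at the highest over the long-term pools, against 19903 and 12802 CPM. Against i_CAF 0 of the 6 genes of the list were called higher and 5 lower in T22, and 1 and 4 in the long-term pools. Of all genes tested 7.29% were higher and 9.65% lower in T22, and 7.52% and 12.5% in the long-term pools. Endo.cells and Malign_2 were far below my_CAF and i_CAF. All 6 genes were called higher in my_CAF than in Endo.cells, and all 6 higher than in Malign_2, in T22 and in the long-term pools. Among all genes tested 11.9% and 9.02% were higher against Endo.cells, and 12.5% and 12.8% against Malign_2. Col5a3, a minor chain of collagen V, ran against the list: it was at 1107 CPM in T22 and 630.4 CPM in the long-term pools, 1.57-fold higher and 2.77-fold higher than in i_CAF.

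Basement membrane genes went in both directions. Col4a1, the collagen IV chain that forms the network under vessels, was at 10513, 9318, 8462 and 9015 CPM in the T22 pools and at 2240.3 at the lowest, 4084 at the median and 5074 at the highest over the long-term pools. The i_CAF level was 5501 CPM in T22 and 807 CPM in the long-term pools, and the Endo.cells level 7284 and 4114. The my_CAF cells were therefore 4.59-fold higher than i_CAF in the long-term pools and 1.69-fold higher in T22. Col18a1, the precursor of endostatin, was at 1042, 847, 814 and 995 CPM in the T22 pools and at 299 at the lowest, 429.7 at the median and 1012 at the highest over the long-term pools, 5.16-fold higher and 8.75-fold higher than in i_CAF. The laminin chains did not follow. Lama2 was at 209 and 124 CPM against 755 and 208 in i_CAF, and Lamb1 at 333 and 164 against 635 and 260.2. Of the 14 tested members 1 was called higher and 5 lower than in i_CAF of T22, and 4 and 3 in the long-term pools, with 4 and 0 of 12 in T127. Of all genes tested 7.29% were higher and 9.65% lower in T22, 7.52% and 12.5% in the long-term pools, and 7.7% and 19.6% in T127, so the 1 higher in T22 is near the share of all genes.

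Integrins, the receptors for these matrices, were uneven. Itga1, which pairs with Itgb1 into a receptor for collagens, was at 1662, 1211, 1554 and 1064 CPM in the T22 pools and at 423 at the lowest, 579.6 at the median and 898 at the highest over the long-term pools, the highest of all clusters in each experiment, with i_CAF at 266 and 41.7 CPM. Itga7, a laminin receptor of muscle, was at 117 CPM (pools 104 to 125) in T22 and 57.9 CPM in the long-term pools, against 0.141 and 0.472 CPM in i_CAF. Itga5 and Itgav were below i_CAF in T22, at 52.5 against 77.5 and 113 against 193 CPM. Over the list 4 of 10 were called higher and 2 lower than in i_CAF of T22, and 2 and 3 of 7 in the long-term pools. The shares of all genes tested were 7.29% higher and 9.65% lower in T22, and 7.52% and 12.5% in the long-term pools.

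**Figure D3:**
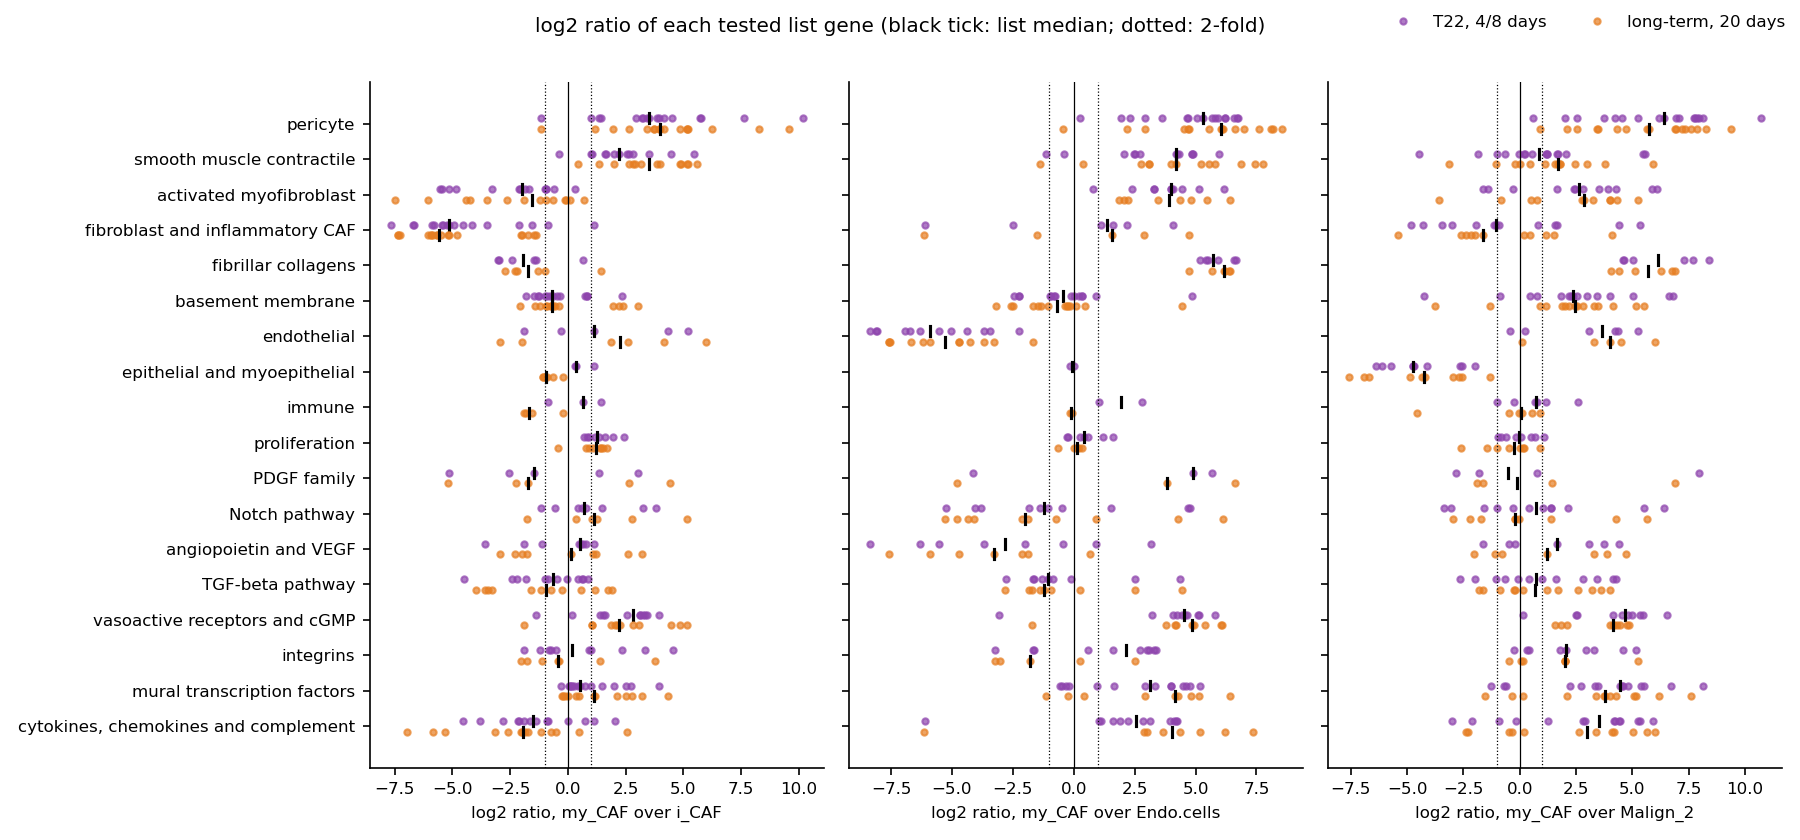
log2 ratio (5 CPM added) of my_CAF over i_CAF, Endo.cells and Malign_2 for each gene with enough UMIs of 18 lists, in T22 (purple) and in the long-term pools (orange), with the list median as a black tick and 2-fold as dotted lines. The pericyte list lies to the right in all 3 panels, the fibroblast list to the left in the i_CAF panel, and the endothelial list to the left in the Endo.cells panel.

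Markers of other cells were nearly absent, with some exceptions. Of the 12 endothelial genes Pecam1, Cdh5, Kdr, Tie1, Cldn5 and Erg had 0 UMIs in the 129 T22 cells. In the long-term my_CAF cells 1 Pecam1 UMI was found. Against Endo.cells all 12 were called lower in T22 and all 12 in the long-term pools, beside 11.3% and 15.2% of all genes tested. Esam and Emcn, adhesion and surface proteins of endothelium, were still at 197 and 97.6 CPM in T22 and 331 and 90.3 CPM in the long-term pools, with under 1 CPM in i_CAF. Flt1, a VEGF receptor, was at 90.3 and 68.7 CPM. Endo.cells had 955, 1120.2 and 1215 CPM of these 3 genes in T22. All 10 epithelial and myoepithelial genes were called lower than in Malign_2 in both experiments, beside 12.5% of all genes tested in T22 and 13.8% in the long-term pools. Krt5 and Krt14, keratins of basal and myoepithelial cells, were at 20.3 and 19.7 CPM in my_CAF of T22 against 1761 and 2081 CPM in Malign_2, and their levels in i_CAF were 6.62 and 15.2 CPM. Cells with at least 1 UMI of Ptprc, Epcam or Pecam1 were 16 of 129 in T22 (5, 11 and 0 cells), 5 of 117 in the long-term pools and 0 of 8 in T127. Leaving them out moved the pericyte counts by 1 gene at most. It left 0 of 3 immune genes called higher and 3 called lower than in i_CAF of T22, where 1 had been called higher and 0 lower. With all cells kept, 7.29% of all genes tested there were higher and 9.65% lower.

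Among signalling genes the ligand Pdgfa was at 354, 379, 367 and 351 CPM in the T22 pools and at 425 at the lowest, 572 at the median and 867 at the highest over the long-term pools, 9.04-fold higher and 25.9-fold higher than in i_CAF. Pdgfb, the endothelial ligand of PDGFR-beta, was at 13.0 CPM in my_CAF of T22 and 308 CPM in Endo.cells. In the Notch pathway the receptor Notch3 and the target Heyl stood out. Heyl, a transcriptional repressor induced by Notch3 in mural cells, was at 302, 241, 149 and 231 CPM in the T22 pools and at 56.7 at the lowest, 80.8 at the median and 202 at the highest over the long-term pools, against 79.2 and 9.16 CPM in i_CAF. The ligands Dll1, Dll4 and Jag2 were at under 5 CPM in both experiments and Jag1 at 122 and 84.9 CPM. The whole Notch list had 3 of 8 members called higher and 1 lower than in i_CAF of T22, and 4 and 1 of 6 in the long-term pools. Against Endo.cells these were 3 and 6 of 10 in T22, beside 11.9% higher and 11.3% lower of all genes tested. In the long-term pools they were 2 and 6 of 10, beside 9.02% and 15.2%. Angpt1, the ligand by which mural cells act on the endothelial receptor Tek, was at 62.1 CPM in T22 (pools 34.4 to 84.1) and 45.8 CPM in the long-term pools, and in i_CAF at 34.5 and 17.1 CPM. Of the TGF-beta ligands Tgfb2 and Tgfb3 were at 121 and 122 CPM in T22 and 104 and 104 CPM in the long-term pools, whereas the receptor Tgfbr2 was at 91.4 and 51.2 CPM against 444 and 680.4 in i_CAF. Of the 12 TGF-beta genes 0 were called higher and 4 lower than in i_CAF of T22, 2 and 6 in T127, and 3 and 6 in the long-term pools. Of all genes tested against i_CAF 7.29% were called higher and 9.65% lower in T22, 7.7% and 19.6% in T127, and 7.52% and 12.5% in the long-term pools.

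Against i_CAF 2 of 5 PDGF genes were called higher and 3 lower in T22, and 2 and 3 of 5 in the long-term pools. Of the angiopoietin and VEGF genes 1 and 3 of 8 were called higher and lower in T22, and 4 and 4 of 9 in the long-term pools. These lists are small, beside 7.29% higher and 9.65% lower of all genes tested in T22. Of the Schwann cell and adipocyte markers 0 of 6 had enough UMIs against i_CAF of T22. The list of vasoactive receptors and cGMP genes was raised, with 10 of 12 members called higher and 1 lower than in i_CAF of T22 (median 2.82). In the long-term pools these were 11 and 1 of 12 (median 2.20). Not all members are receptors, since Prkg1, Pde3a and Pde5a are on it, and Gucy1a1 and Gucy1b1 are on the pericyte list too. Over all genes tested 7.29% were higher and 9.65% lower in T22, and 7.52% and 12.5% in the long-term pools. Without the long-term pools 1 to 3, 9 of 12 members were called higher and 1 lower. S1pr3, a receptor for sphingosine 1-phosphate, was at 469 CPM in T22 (pools 398 to 572) and 141 CPM in the long-term pools, against 162 and 30.5 in i_CAF. Agtr1a, the angiotensin II receptor, was at 199 and 86.2 CPM against 15.2 and 14.0. Pde5a, the phosphodiesterase that breaks down cGMP, was at 221 and 147 CPM against 20.7 and 12.8. Ednra, the endothelin receptor of smooth muscle, was at 375 CPM in T22, where i_CAF had 329 CPM, and at 202 CPM in the long-term pools, where i_CAF had 42.0.

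Of the transcription factors, Tbx2 separated my_CAF from i_CAF by the widest margin of those named here. It was at 336, 346, 338 and 265 CPM in the T22 pools and at 91.6 at the lowest, 123 at the median and 205 at the highest over the long-term pools, against 16.2 and 2.64 CPM. Foxs1, a forkhead factor of pericytes, was at 114 and 169.7 CPM, and in i_CAF at 66.9 and 13.8. Tbx18, the factor used to trace mural cells, was at 45.7 CPM in T22 and 17.5 CPM in the long-term pools, and in i_CAF at 42.0 and 21.0, so it did not part the clusters. Against i_CAF 6 of 15 were called higher in T22 and 7 of 13 in the long-term pools, none lower. Of all genes tested against i_CAF 7.29% were higher and 9.65% lower in T22, and 7.52% and 12.5% in the long-term pools. Of the cytokine, chemokine and complement genes 2 were called higher and 8 lower of 14 against i_CAF of T22, and 1 and 10 of 14 in the long-term pools. Against Endo.cells and Malign_2 most were called higher, with 11 of 12 in T22 and 7 of 8 in the long-term pools against Endo.cells, and 10 of 14 and 7 of 12 against Malign_2. Among all genes tested 11.9% and 9.02% were higher against Endo.cells, and 12.5% and 12.8% against Malign_2. Il34, a ligand of the CSF1 receptor of macrophages, was at 221, 213, 160.1 and 135 CPM in the T22 pools and at 196 at the lowest, 338 at the median and 474 at the highest over the long-term pools, against 108 and 46.1 CPM in i_CAF. It was called higher in the long-term pools (ratio 6.52, 95% interval 5.54 to 7.66) and did not reach 2-fold in T22 (ratio 1.69, 95% interval 1.48 to 1.93). Csf1, the other ligand of that receptor, was at 47.4 and 25.6 CPM against 227 and 181. Ccl11, the chemokine eotaxin, was at 118, 82.2, 93.4 and 71.2 CPM in the T22 pools. Over the long-term pools it was at 161 at the lowest, 324 at the median and 809.7 at the highest. It was also made by i_CAF, at 616 to 859 CPM in long-term pools 1 to 4 and 459 to 633 CPM in pools 5 to 8. In my_CAF these pools were at 307 to 810 and 161 to 586 CPM.

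Ranked over the next highest of all clusters with at least 50 cells, the first genes after Rgs5 and Higd1b were Des, Ppp1r14a, Ndufa4l2, Notch3 and Gjc1. Ppp1r14a, an inhibitor of the myosin phosphatase of smooth muscle, was at 310.3 CPM in T22, 518 in T127 and 463 in the long-term pools, and the next cluster had at most 19.4 CPM. Gjc1, the gap junction protein connexin 45, was at 763, 518 and 771 CPM. Nr2f2, a nuclear receptor of veins and mesenchyme, was at 493, 634 and 337 CPM. Cygb (cytoglobin) and the unnamed gene model Gm13889 were also above every other cluster in the 3 experiments, with smallest log2 ratios of 1.38 and 1.72. Among the genes most lowered against i_CAF beside the fibroblast list were Ogn, the proteoglycan osteoglycin, and Ctla2a, a protease inhibitor. Ctla2a was at 3.38 CPM in my_CAF of T22 and 10.8 CPM in the long-term pools, against 982 and 10469 CPM in i_CAF and 3223 and 4033 in Endo.cells. Against Endo.cells the leading genes were Mgp, an inhibitor of calcification, Col5a2, Col5a3, Col6a1 and Ndufa4l2. Mgp was at 21057 CPM in T22 and 11386 CPM in the long-term pools, above i_CAF as well (13614 and 4994 CPM). Against Malign_2 the leading genes beside Rgs5, Higd1b and Aspn were Sparcl1 and Gng11, which Endo.cells also made (3044 and 1683 CPM in T22). Those most lowered were Mia, Wfdc18, Krt15, Ecrg4 and Apoc1, each at over 1000 CPM in Malign_2. Against Endo.cells they were Pecam1, Cdh5, Cd34, Fam167b and Ctla2a.

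Between the models, the 129 T22 and 8 T127 my_CAF cells had like summed levels of Rgs5 (9746 and 10115 CPM, ratio 0.964, 95% interval 0.907 to 1.02). The T127 pools given above nevertheless all lay outside the range of the T22 pools, on both sides of it. The interval does not cover that spread or the small number of cells. Of 5391 genes tested 856 were called higher in T22 (15.9%) and 240 lower (4.45%). Myh11 and Des were lower in T22, with log2 ratios of -1.25 and -1.54, and Higd1b, Abcc9 and Gucy1a1 higher, with 1.37, 1.03 and 1.75. Over the pericyte list 7 of 17 members were called higher in T22 and 0 lower, and over the contractile list 0 of 13 were called higher and 4 lower. Of the activated myofibroblast genes 2 of 11 were called higher and 6 lower (median -1.46). Proliferation genes were called higher for 5 of 7 and lower for 0 (median 2.52). Sub-cluster 2 (below), with the highest Acta2, held 62.5% of the T127 cells and 5.43% of the T22 cells, and its part in these counts was not tested. The rule for the genes named next used the separate pools, of which 3 held 1 or 2 cells in T127, so the choice is a description of these cells. By that rule 13% of the genes tested had all T22 pools above and 2.26% all below those of T127, from which nothing is read. Among those higher in T22 were replication histone genes (Hist1h1b, at 476 CPM in T22 and 0 UMIs in T127), the microfibril gene Fbn2 (181 CPM and 0 UMIs), Lyz2 and Ccl2. Of the Lyz2 UMIs of sub-cluster 1 (below) 82.7% came from 1 cell, and of its Ccl2 UMIs 69.8%. Among those lower in T22 were Sdc1, Olfml2b, Fn1 (fibronectin, 367 CPM in T22 and 1903 CPM in T127) and Vim (vimentin, 2752 and 8229.8 CPM). Pools 1 to 3 of T127 held 1 or 2 cells, so that 1 cell could set a pool, and the model and the sampling of these few cells cannot be told apart. Leaving out pool 4 of T127, with 4 of its 8 cells, raised the genes called lower in T22 from 240 to 393.

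Shares of cells with a UMI were compared at equal depth. Thinned to 3000 UMIs per cell, with 18 of 129 T22 cells and 24 of 117 long-term cells left out as shallower, Rgs5 was found in 109 of 111 T22 cells and 91 of 93 long-term cells. Without thinning it was found in 98.4% of T22 and 96.6% of long-term cells. B cells, which should lack the gene, had it in 0 of 17 cells in T22 and 0 of 44 cells in the long-term pools. With 3 cells taken as what a count of 0 allows, these allow shares of up to 17.6% and 6.82%, which are not Clopper-Pearson limits. The median depths before thinning were 2862.5 and 2082 UMIs in B cells. Acta2 was found in 89 of 111 and 79 of 93 my_CAF cells (86.8% and 81.2% unthinned), against 3 of 17 and 2 of 44 B cells. Myh11 was found in 38 of 111 and 37 of 93 my_CAF cells (65.1% and 51.3% unthinned), against 0 of 17 and 0 of 44 B cells, which allow up to 17.6% and 6.82% by the same rule. Rgs5 was in nearly every thinned cell, so that its presence beside Myh11 says little. Of the 111 thinned T22 cells 24 had both Kcnj8 and Myh11, 55 had Kcnj8 without Myh11, 14 Myh11 without Kcnj8, and 18 neither. Of the 93 long-term cells these were 22, 44, 15 and 12. Dcn was found in 8 of 111 T22 cells and 11 of 93 long-term cells, against 1 of 17 and 6 of 44 B cells. The B cells counted were those of at least 3000 UMIs, 17 of 38 in T22 and 44 of 309 in the long-term pools. They are too few to tell whether the Dcn shares lie above the background.

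Clustered on their own, the 254 cells fell into 5 groups of 89, 65, 41, 32 and 27 cells, described here by number and by their leading genes. Sub-cluster 1 held 70 of the 129 T22 cells, 2 of the 8 T127 cells and 17 of the 117 long-term cells. Its leading genes included the immediate early genes Fos and Atf3, the factor Klf4 and the chemokines Cxcl1, Cxcl2 and Ccl2, with Fos at 3185 CPM against 564 CPM in the other my_CAF cells. Fos was found in 71 of its 89 cells, Cxcl1 in 45, Atf3 in 41, Klf4 in 26, Ccl2 in 21 and Cxcl2 in 14. Of the Ccl2 UMIs 69.8% and of the Cxcl2 UMIs 51.3% came from 1 cell each. The first gene of sub-cluster 1 by ratio was Col11a1, of the activated myofibroblast list. It was found in 11 of the 89 cells, all of T22, with 20 of its 60 UMIs in 1 cell. Sub-cluster 2 held 53 long-term, 7 T22 and 5 T127 cells. It was led by Actg2, Ccn2, Tnc, Fhl1 and Lmod1. Tnc, of the activated myofibroblast list, was found in 16 of its 65 cells, with 87 of its 133 UMIs in 1 cell. The experiments hold different shares of the sub-clusters, so contractile levels are given within each experiment. Among long-term cells Acta2 was at 11687 CPM in sub-cluster 2 and at 7034, 1190.5 and 7467 CPM in sub-clusters 1, 3 and 5. Among T22 cells it was at 14887 CPM in the 7 cells of sub-cluster 2 and at 1900.4, 646, 2778 and 3134 CPM in sub-clusters 1, 3, 4 and 5. Tagln was at 4584 CPM in the long-term cells of sub-cluster 2 and at 2997, 408 and 1967 CPM in those of sub-clusters 1, 3 and 5, and Myh11 was at 411 CPM and at 213, 107 and 181 CPM. Actg2, the enteric actin, came for 75% of its UMIs in this sub-cluster from 1 cell, and 21 of its 65 cells had a UMI of it. Rgs5 was nonetheless at 5249 CPM in sub-cluster 2 and was found in 63 of its 65 cells.

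Sub-cluster 3 held 36 long-term and 5 T22 cells and none of T127. Its first gene by ratio was Saa3, but all 22 Saa3 UMIs lay in 2 of its 41 cells. Next came interferon-induced genes (Ifit1, Ifit3, Isg15, Usp18, Ifi44) and Ednrb, an endothelin receptor, with Isg15 in 29 of its 41 cells. The others were in fewer, with Ednrb in 14, Ifit3 in 11, Usp18 in 10, Ifi44 in 8 and Ifit1 in 7, and 62.5% of the Ifit1 UMIs came from 1 cell. At a lower clustering resolution, 0.3, 40 of these 41 cells and all 32 of sub-cluster 4 joined sub-cluster 1, so that neither stood on its own. At a resolution of 1, 38 of the 41 stayed together, as did all 27 cells of sub-cluster 5. Sub-cluster 2 then broke mainly into 35 and 27 cells. Sub-cluster 1 broke mainly into 51, 25 and 12, and those 12 fell together with 31 cells of sub-cluster 4. Higd1b was at 2284 CPM in the long-term cells of sub-cluster 3 and at 1099.95 to 1514 CPM in those of sub-clusters 1, 2 and 5. Kcnj8 was at 1550.1 CPM in its long-term cells against 298 to 584 CPM, but at 767 CPM in its T22 cells against 816 CPM in those of sub-cluster 1. Hba-a1, a haemoglobin gene of red blood cells, was also among its leading genes, but this goes with the experiment, since T22 cells had 0 to 1.89 CPM in every sub-cluster. Among long-term cells it was at 1516 CPM in sub-cluster 3 and at 907, 1194 and 686 CPM in sub-clusters 1, 2 and 5. Sub-cluster 4 held 28 T22 and 4 long-term cells, and was led by Cd93, Fry, Olfr558 and Agt. Over all experiments together its Rgs5 level, 20449 CPM, and its Cspg4 level, 609 CPM, were the highest, Dcn had 0 UMIs and Acta2 was at 2793 CPM. Among T22 cells alone Rgs5 was at 20515 CPM in it and at 8536, 5935, 8863 and 7321 CPM in sub-clusters 1, 2, 3 and 5. The Cspg4 level is not given by experiment here. Il17f and Trbc2, genes of T cells, were also among its leading genes, but all 26 Il17f UMIs and 24 of the 28 Trbc2 UMIs of the sub-cluster lay in 1 cell each. The median depth of its T22 cells was 7259 UMIs, against 12037 UMIs over all T22 my_CAF cells. Sub-cluster 5 held 19 T22, 1 T127 and 7 long-term cells and was led by replication histones and Cenpf, Nusap1 and Mki67, of dividing cells. Mki67 was found in 26 of its 27 cells, at 1502 CPM, and at 11.7 to 82.3 CPM in the other 4. Rgs5 was found in all 27 cells, at 6741 CPM.

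**Figure D4:**
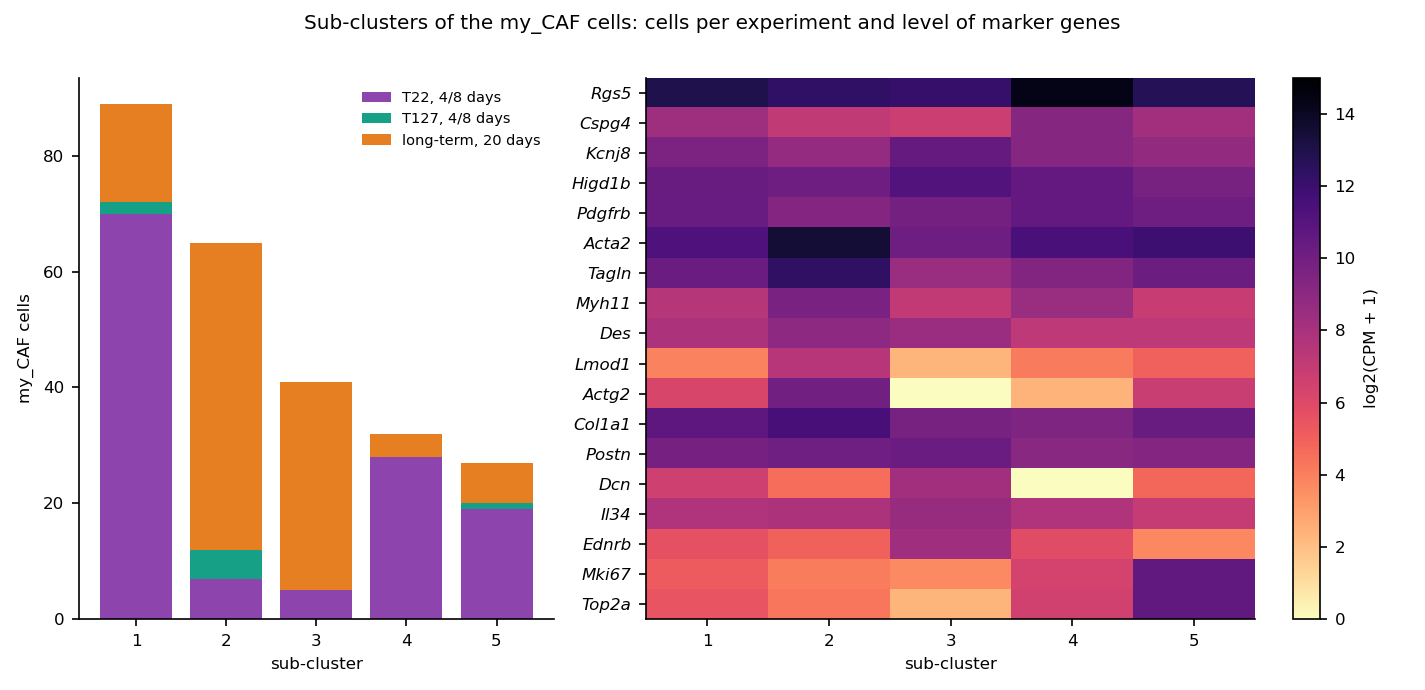
Left, number of my_CAF cells in each of the 5 sub-clusters, stacked by experiment (purple T22, green T127, orange long-term). Right, log2(CPM + 1) of 18 marker genes, by colour, in each sub-cluster; Rgs5 is dark in all 5, Acta2 and Tagln are darkest in sub-cluster 2, and Mki67 and Top2a in sub-cluster 5.

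The sub-clusters were made from the same counts, so their genes are a description. With the groups of cells set by these genes, 54.3% of T22 cells and 14.5% of long-term cells lay in sub-cluster 1, 5.43% and 45.3% in sub-cluster 2, and 14.7% and 5.98% in sub-cluster 5. Depth differed between the experiments too (12037 and 5926 UMIs at the median), and its part in these shares was not tested. Against i_CAF 5 of 8 proliferation genes were called higher in T22 and 5 of 8 in the long-term pools, with 0 lower in either, whereas in T127 1 was higher and 2 lower of 3. Against Endo.cells 2 of 7 were higher in T22 and 0 of 5 in the long-term pools, and in T127 1 was higher and 5 lower of 6. The gene higher in T127 was Mki67 in both, and 1 pool of 2 cells set this, since without T127 pool 1 its log2 ratio was -2.70 over i_CAF and -2.96 over Endo.cells. Against Malign_2 1 of 8 was higher in T22, and in the long-term pools 0 were higher and 3 lower of 8. Over all genes tested against i_CAF 7.29% were higher and 9.65% lower in T22, and 7.52% and 12.5% in the long-term pools. In T127 these shares were 7.7% and 19.6%. Against Endo.cells they were 11.9% and 11.3% in T22, 9.02% and 15.2% in the long-term pools, and 6.05% and 25.6% in T127. Against Malign_2 they were 12.5% and 12.5% in T22 and 12.8% and 13.8% in the long-term pools. The 1 of 8 in T22 is thus near the share of all genes. Mki67 was at 276, 391, 471 and 192 CPM in the T22 pools and at 0 at the lowest, 55.5 at the median and 199 at the highest over the long-term pools, against 59.2 and 23.2 CPM in i_CAF.

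The 8 long-term pools were not alike. Acta2 in my_CAF was at 9444, 9803, 8169, 10499.7, 3059, 4559.6, 4345 and 4139.5 CPM in pools 1 to 8, and the lowest of pools 1 to 4 was above the highest of pools 5 to 8. Tagln was split in the same way, at 2763 to 4041 CPM in pools 1 to 4 and 1381 to 2111 CPM in pools 5 to 8. Pdgfrb and Higd1b went the other way: Pdgfrb was at 457 to 538 CPM in pools 1 to 4 and 765 to 1081 CPM in pools 5 to 8, and Higd1b at 1001 to 1651 and 1722 to 2422 CPM. The sets also held different sub-clusters. Sub-cluster 3, with the lowest Acta2 and the highest Higd1b among long-term cells, was 18 of 74 cells in pools 1 to 4 and 18 of 43 in pools 5 to 8, and sub-cluster 1 was 13 and 4 cells, and their part in these splits was not tested. This split by pool number was noticed in the values, and the labels give no difference between these pools. Of 2363 genes with at least 50 UMIs in the long-term my_CAF cells, 85 (3.6%) had pools 1 to 4 all above pools 5 to 8 and 68 (2.88%) all below. These shares were 10.6% and 9.01% in i_CAF, 8.39% and 7.34% in Malign_2, and 3.41% and 3.36% in Endo.cells. In i_CAF Tagln was at 287 to 671 CPM and 113 to 218 CPM, whereas Acta2 overlapped, at 158 to 425 and 89.6 to 178 CPM (log2 ratio 1.16). In Malign_2 Acta2 was at 7045 to 9661 and 5270.3 to 6647 CPM. Not every contractile gene was split without overlap. Pools 1 to 4 and 5 to 8 overlapped for Myh11, Mylk and Des in my_CAF (log2 ratios 1.06, -0.21 and 0.03), and for Myh11 and Mylk in Malign_2 (-0.03 and -0.08). The Myh11 ratio in my_CAF was nonetheless like that of Tagln (1.05), so its overlap does not mean equal levels. The haemoglobin genes Hbb-bs and Hba-a1 were lower in pools 1 to 4 of my_CAF, at 975 to 1296 against 3092 to 5521 CPM and 468 to 650 against 1873 to 3112 CPM. The make-up of the pools also differed, with Malign_1 at 9.67 to 10.9% of cells in pools 1 to 4 and 3.32 to 4.61% in pools 5 to 8, and B cells at 0.152 to 0.811% and 1.62 to 2.50%. The part of these differences in the my_CAF values was not tested.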

How the data were processed

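Single-cell RNA-seq was made with 10x Genomics chemistry from pools of tagged tumors. The deposited tables hold UMI counts per gene and cell, which the authors made with Cell Ranger 6.0.0 on GRCm38, and their annotation gives each cell a cluster. The counts are not normalized. No doublet caller was run here, and a set without the top 5% of cells by UMIs was tried instead. Cells were grouped by that annotation, and counts were summed per cluster and pool over 32285 genes. In the long-term pools the deepest copy of a repeated 16-base barcode was kept. Ratios used a pseudocount of 5 CPM, a minimum of 50 UMIs and a 2-fold threshold. Intervals were exact Poisson, Clopper-Pearson or conditional binomial at 95%. On simulated data for my_CAF against i_CAF in T22, 91% of 200 genes changed 4-fold were recovered among 9698 genes. The sub-clusters came from Leiden clustering (leidenalg 0.10.2, igraph 0.11.9) on 1000 variable genes, 15 principal components, 15 neighbours and a resolution of 0.5. The scripts ran in Python 3.11.15 with scikit-learn 1.9.0 for components and neighbours, scipy 1.17.1 for intervals, pandas 2.3.3 and numpy 2.4.6 for tables, and matplotlib 3.10.9 for plots.

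The cells, the 20 gene lists and the comparisons were chosen with earlier results of these data known. Genes outside the lists were named by rank. They were the 15 highest over the next cluster, the 5 highest and 5 lowest against each cluster among genes called in every experiment (ranked by the smallest ratio), and the 8 highest and 8 lowest between T22 and T127 among called genes whose pools did not overlap and that had at least 50 UMIs in the higher group. The genes named for the sub-clusters, and those of the long-term pools, were chosen after their values were seen. Alternatives covered the pseudocount, the filter, the weighting of pools, shallow and deep cells, repeated barcodes, denominators, resolutions and each pool left out. Promoter motifs were not analysed here, and some genes are not reported here. T127 cells of Malign_2 were not used.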

Additional observations from a re-analysis of the deposited data

Results flagged for a closer look

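Of 79 sets of pool values 11 had a lowest or highest pool set apart by a wide gap. Chance gives about 1 in 20 for smoothly varying values, a rate that does not apply to counts near 0, so the number is not read as an excess. In 6 of the 11 the pool set apart held under 10 UMIs, with 1 UMI each for Cxcl12, Pecam1 and Ptprc. Among contractile and matrix genes, Cnn1 was at 158 CPM in long-term pool 2 (next pool 18.9 CPM), and 16 of the 17 Cnn1 UMIs of sub-cluster 1 lay in 1 cell. Col18a1 was at 1012 CPM in long-term pool 6 (next 513). Dcn was at 486 CPM in long-term pool 1 (next 149), and Pdgfra at 14.7 CPM in T22 pool 4 (next 1.87). Tbx2 was at 265 CPM in T22 pool 4, below the next lowest pool at 336. Of the cytokines, Il6 was at 66.5 CPM in long-term pool 8 (next 25.6) and Cxcl12 at 2.22 CPM in T22 pool 3 (others 0). Markers of other cells stood apart at low levels, with Pecam1 at 9.46 CPM in long-term pool 6 (others 0), Epcam at 21.0 CPM in T22 pool 1 (next 7.48) and Ptprc at 19.0 CPM in long-term pool 7 (next 7.08). Mki67 was at 199 CPM in long-term pool 6 (next 85.2). Long-term pools held as few as 8 my_CAF cells, and the cause of these gaps was not tested.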

How the results depend on the processing

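The counts of called genes moved with the threshold on low values. With a pseudocount of 20 CPM the genes higher and lower than in i_CAF were 389 and 495 in T22 and 396 and 568 in the long-term pools, with 268 higher in T127. Against Malign_2 they were 938 and 780 in T22 and 805 and 688 in the long-term pools, and between T22 and T127 536 and 154. With 1 CPM the genes lower than in Malign_2 were 2511 in T22 and 2288 in the long-term pools. With at least 10 UMIs they were 1081 and 2566 against i_CAF of T127, 1396 and 1200 against Endo.cells of T22, 807 and 2466 of T127, 985 and 1462 of the long-term pools, and 2485 and 646 between the models. With no filter the same comparisons gave 1618 and 2566, 1431 and 1296, 1768 and 3013, 1197 and 1591, and 2617 and 1033. Without the long-term pools 1 to 3, an alternative added after seeing the data, 302 genes were higher than in Endo.cells of the long-term pools. The share of my_CAF in T127 was 0.256% of non-malignant cells, and at a resolution of 0.3 the cells fell into 3 sub-clusters, with sub-clusters 3 (40 of 41 cells) and 4 (32 of 32) joined to sub-cluster 1.

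Leaving out each pool in turn gave 176 to 393 genes lower in T22 than in T127, the highest without T127 pool 4, and 632 to 1204 higher. Some single genes turned direction when a pool or the deepest cells were left out. The log2 ratio of Lyz2 over i_CAF of T22 ranged from -0.93 without pool 2 to 2.15, that of Mki67 over i_CAF of T127 from -2.70 without pool 1 to 2.78, and that of Hist1h2ak over i_CAF of the long-term pools from -0.0197 without pool 6 to 1.33. Over Endo.cells of T127 Mki67 ranged from -2.96 without pool 1 to 2.30, and Hey1 from -3.81 to 0.0304 without pool 4. Between T22 and T127 Cxcl1 ranged from -2.39 to 2.87, the highest without T127 pool 1. Without the top 5% of cells by UMIs Cd3e in T22 was at -1.02 over Malign_2. The cause was not tested. Of the other alternative values for the main counts and shares, 249 stayed within 1.5 times or the counting interval. Clusters of the same pool could be set side by side, a count added after seeing the data. Of the listed genes called higher and lower than in i_CAF, 56 of 60 and 54 of 54 kept that direction in every T22 pool, 54 of 70 and 56 of 62 in every long-term pool, and 31 of 42 and 45 of 49 in every T127 pool. No paired analysis was possible between T22 and T127 because the labels tie no pool number to a shared tumor, animal or day. The 8 cells of T127 limit what could be detected there.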
